A study of Homo sapiens with 12 samples.

Results

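The cytosolic ribosomal protein genes encode the proteins of the ribosome that makes nearly all cellular protein. They were taken as the protein-coding genes of the human hg19 annotation whose symbol is RPL or RPS followed by a number, together with RPLP0, RPLP1, RPLP2 and RPSA, on chromosomes 1 to 22 and X. This rule gave 84 of 20098 protein-coding genes, of which 46 encode proteins of the large subunit, 31 encode proteins of the small subunit and 7 are paralogs with their own symbol (RPL3L, RPL7L1, RPL10L, RPL22L1, RPL26L1, RPL39L and RPS27L). A further 2 symbols that fit the rule lie on chromosome Y and were not used.

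Chromatin was immunoprecipitated from HCC70, an established line of basal-like triple-negative breast cancer, with antibodies against SREBP2, RORγ or H3K27ac. SREBP2 is the transcription factor that drives cholesterol synthesis genes, RORγ is a nuclear receptor of the ROR family, and H3K27ac is a histone acetylation found at active promoters and enhancers. Cells had received vehicle or XY018, a synthetic antagonist of RORγ, for 24 h, at 5 µM according to the sample labels and at a lower dose according to the methods of the study. Each antibody and treatment was represented by 1 library, which makes 6 groups of 1, and all libraries came from this single unmodified line at passages the labels give as a range.

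A ribosome joins a small subunit, which reads the messenger RNA, to a large subunit, which forms the peptide bonds. Its proteins are needed in matched amounts, and their mRNAs begin with a C followed by a run of pyrimidines, the 5′ terminal oligopyrimidine (TOP) motif, through which mTOR signalling controls their translation. Their genes are short, are among the most heavily transcribed in dividing cells, and often carry small nucleolar RNAs in their introns.

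The starts of these genes are printed first because the TOP motif is what the members share beyond their names. Each window holds 40 bases before and 20 bases from the start of the transcript that GENCODE tags as canonical, in hg19 and in the direction of transcription, and capitals mark the run of pyrimidines that begins with C at the start. A start was called TOP-like when the C was followed by at least 4 pyrimidines. The canonical start need not be the start these cells use most. The paralogs RPL22L1, RPL10L, RPL39L and RPS27L are set beside other members for contrast.
RPS19, chr19:42364285-42364344, plus strand: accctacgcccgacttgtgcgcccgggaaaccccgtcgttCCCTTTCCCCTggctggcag
RPS6, chr9:19380215-19380274, minus strand: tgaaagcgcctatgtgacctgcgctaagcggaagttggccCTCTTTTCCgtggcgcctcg
RPS3, chr11:75110522-75110581, plus strand: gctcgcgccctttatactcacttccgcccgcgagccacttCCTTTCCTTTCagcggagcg
RPL39, chrX:118925574-118925633, minus strand: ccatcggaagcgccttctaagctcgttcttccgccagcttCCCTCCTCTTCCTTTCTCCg
RPL7A, chr9:136215033-136215092, plus strand: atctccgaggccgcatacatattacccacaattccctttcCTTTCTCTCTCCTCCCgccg
RPLP1, chr15:69745117-69745176, plus strand: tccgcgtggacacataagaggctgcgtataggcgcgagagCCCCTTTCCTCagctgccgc
RPL22, chr1:6259636-6259695, minus strand: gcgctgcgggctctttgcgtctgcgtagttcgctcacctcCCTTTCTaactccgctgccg
RPL22L1, chr3:170587965-170588024, minus strand: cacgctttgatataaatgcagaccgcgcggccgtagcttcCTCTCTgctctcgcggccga
RPL10, chrX:153626678-153626737, plus strand: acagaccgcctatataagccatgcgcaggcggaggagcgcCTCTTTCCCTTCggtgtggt
RPL10L, chr14:47120965-47121024, minus strand: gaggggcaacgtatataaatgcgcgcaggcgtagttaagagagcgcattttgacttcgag
RPL39L, chr3:186857265-186857324, minus strand: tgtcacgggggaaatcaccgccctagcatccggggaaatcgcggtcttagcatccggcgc
RPS27, chr1:153963198-153963257, plus strand: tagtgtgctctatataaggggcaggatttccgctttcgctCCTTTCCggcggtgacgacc
RPS27L, chr15:63449657-63449716, minus strand: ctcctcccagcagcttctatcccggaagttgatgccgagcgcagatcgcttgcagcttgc

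A TOP-like start was found at 59 of the 84 genes (70.2%), against 4.56% of all protein-coding genes and 5.29% of the genes with H3K27ac under both treatments. The median run was 8 pyrimidines, and the longest, of 19, was that of RPL39, which lines the peptide exit tunnel. Large and small subunit genes were alike in this respect, with 34 of 46 and 24 of 31, whereas RPL22L1 was the single paralog of 7 with such a start. Short words known as binding elements were searched on both strands from 250 bases before to 50 bases after the canonical start. The ETS element CCGGAAG was present at 30 members (35.7%, all genes 14.0%) and the YY1 element AAGATGGC at 11 (13.1%, all genes 4.03%). The NRF1 element was present at 13 members (15.5%, all genes 8.37%), GGGCGG, read by SP factors, at 50 (59.5%, all genes 61.0%), and TATAAA at 8 (9.52%, all genes 9.82%). Of the elements tied to the factors profiled here, the sterol regulatory element TCACNCCAC lay at 1 member (1.19%, all genes 1.22%) and the E-box CACGTG, which SREBP proteins can also read, at 6 (7.14%, all genes 8.74%). The core AGGTCA of the ROR element lay at 12 members (14.3%, all genes 11.3%). Among the genes with H3K27ac under both treatments, the ETS element was present at 18.1%, the YY1 element at 5.33% and the NRF1 element at 11.4%. GGGCGG was present at 75.5% of these genes, above the share of the members, and TATAAA at 5.20%, below it. The sterol regulatory element lay at 1.09% of them, the E-box at 10.1% and AGGTCA at 9.19%. Words were counted separately, so matches of different words may share bases, and a match describes letters only.

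The 6 region lists held 69700 to 167264 regions, and the depth recovered from them was 3.65 to 6.16 tags per kb. Levels are given as fragments at the summit of the strongest promoter region, recovered from the deposited fold and −log10 p, and are not divided by length. An exact Poisson 95% interval covers counting error only, and no value has a replicate check, so no p-value was computed. Fewer cells with a protein on a promoter and less of it per cell cannot be told apart in such material. H3K27ac lay at the promoters of the basal genes EGFR (231 and 255 fragments with vehicle and XY018), FOXC1 (142 and 168), KRT5 (33 and 22) and KRT17 (8 and 18), but not at KRT14 or KRT6B. The mark was absent from the progesterone receptor gene PGR and from the leukocyte gene PTPRC, was low at the oestrogen receptor gene ESR1 (10 and 13), and was high at ERBB2 (180 and 239) and at the collagen gene COL1A1 (110 and 142), which is listed as a marker of other cells. PECAM1 was not matched.

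Nearly every ribosomal protein promoter was acetylated, whereas the share with SREBP2 or RORγ was below that of all genes. A region counted as a promoter region where it touched the stretch that begins 1000 bp before any transcript start and ends 100 bp after it. H3K27ac marked 81 of 84 members with vehicle and 81 with XY018 (96.4%, 95% interval 89.9 to 99.3%), against 66.8% and 68% of all protein-coding genes. SREBP2 marked 47 with vehicle (56.0%, interval 44.7 to 66.8%) against 70.6% of all genes, and 38 with XY018 (45.2%, interval 34.3 to 56.5%) against 62.7%. RORγ marked 34 with vehicle (40.5%, interval 29.9 to 51.7%) against 62.6% of all genes, and 30 with XY018 (35.7%, interval 25.6 to 46.9%) against 61.5%. The factor shares were lower in the members in all 4 libraries, although the members had more annotated starts, with a median of 8 against 5. Among genes acetylated under both treatments, which include 80 members, 88.7% carried SREBP2 and 77.8% carried RORγ with vehicle, against 47 and 33 of the 80 members.

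The gap to all genes depended on the size of the window for both factors. With 5 kb on either side of any start, RORγ regions lay at 64 of 84 members with vehicle and 61 with XY018. The shares of all genes were 80.0% and 77.0%. SREBP2 regions then lay at 64 of 84 members with vehicle and 51 with XY018, against 81.1% and 73.5% of all genes. Of the 50 members without a RORγ promoter region with vehicle, 30 had their nearest region within 5000 bp of a start, 17 of them upstream and 13 downstream. These nearby regions were small, with a median of 7 fragments. The strongest lay at -1451 bp from a start of RPL28 (31 fragments) and 133 bp past a start of RPS6 (25 fragments). At q of at most 1e-05, RORγ marked 21 members with vehicle and 19 with XY018, against 51.9% and 50.7% of all genes, and SREBP2 marked 24 with XY018, against 54.2%.

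**Figure D1:**
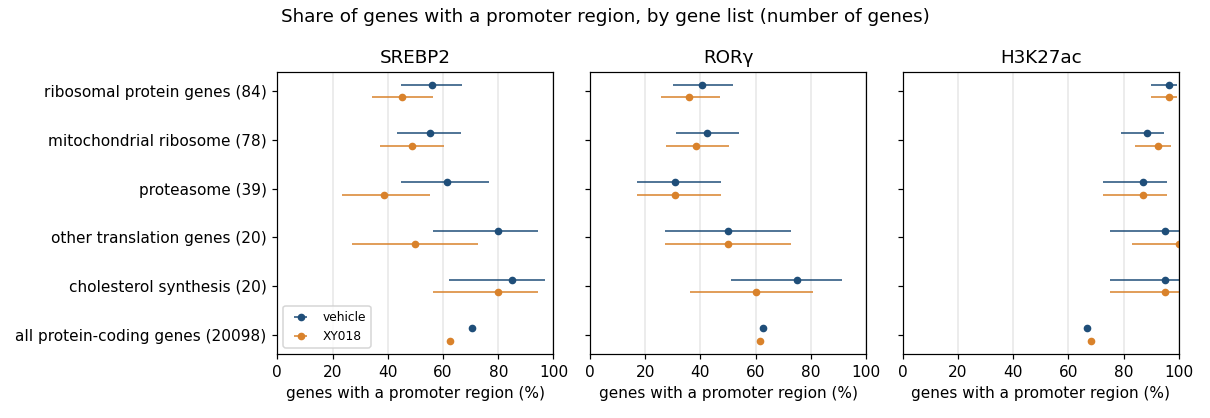
Percent of genes with a promoter region of SREBP2, RORγ and H3K27ac (panels, axis in percent) for the ribosomal protein genes, comparison lists and all protein-coding genes, 1 library per point, with exact binomial 95% intervals. The ribosomal protein genes lie at 96.4% for H3K27ac and at 56.0% and 40.5% for SREBP2 and RORγ with vehicle, below all genes for both factors.

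Other housekeeping lists are given beside the members. With vehicle, SREBP2 regions lay at 43 of 78 mitochondrial ribosome genes, 24 of 39 proteasome genes, 16 of 20 other translation genes and 17 of 20 cholesterol synthesis genes. RORγ regions lay at 33, 12, 10 and 15 genes of these lists, in that order. The mitochondrial ribosome thus stood at 55.1% for SREBP2 and 42.3% for RORγ, beside 56.0% and 40.5% for the cytosolic one. H3K27ac marked 69 mitochondrial ribosome, 34 proteasome, 19 other translation and 19 cholesterol synthesis genes.

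Where a region was present it was, by the medians, smaller than over all genes. The median SREBP2 region of the members held 22 fragments with vehicle and 14.5 with XY018, against 29 and 23 over all genes with such a region. For RORγ the medians were 12 and 12 fragments against 24 and 21, and for H3K27ac 40 and 37 against 60 and 66. With vehicle, the median region was 474 bp wide for SREBP2, 371.5 bp for RORγ and 962 bp for H3K27ac, against 728, 707 and 1063.5 bp over all genes. Small factor regions were not particular to the members. With vehicle, the median SREBP2 region held 24 fragments in mitochondrial ribosome, 18 in proteasome, 18 in other translation and 28 in cholesterol synthesis genes. In the same order the medians were 16, 12, 13 and 19 for RORγ and 36, 44.5, 71 and 67 for H3K27ac. Large and small subunit genes had median H3K27ac of 40 and 50 fragments and median SREBP2 of 18 and 23.5 with vehicle. The 33 members that host a noncoding RNA had a median H3K27ac of 79 fragments with vehicle, against 33 in the 44 members that are neither hosts nor paralogs. With XY018 the gap was narrower, at 54 against 32.5 fragments.

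**Figure D2:**
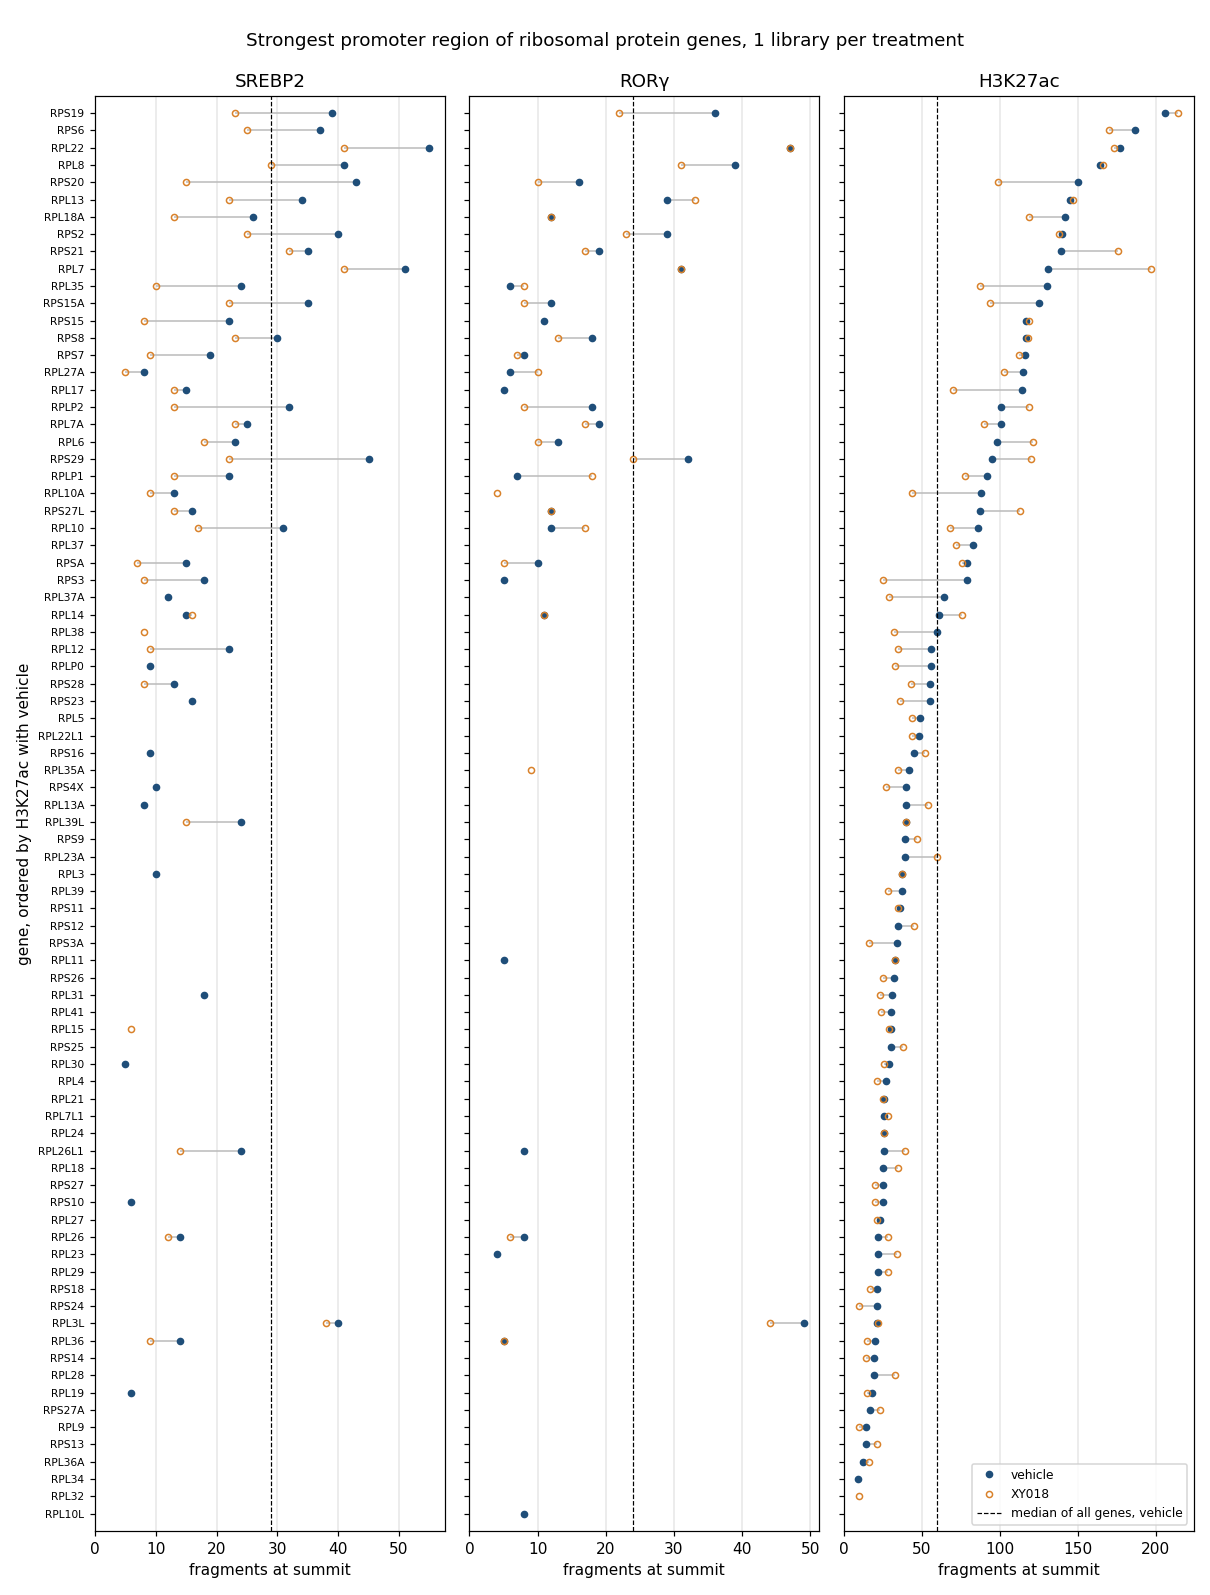
Fragments at the summit of the strongest promoter region of ribosomal protein genes (rows, ordered by H3K27ac with vehicle) for SREBP2, RORγ and H3K27ac, with vehicle as filled and XY018 as open points, 1 library each, the dashed line the vehicle median of all genes, and no point where no region was called. H3K27ac runs from 9 fragments at RPL34 to 206 at RPS19 with vehicle, and points of both factors crowd among the most acetylated genes.

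The most acetylated member was RPS19, a small subunit protein whose loss of function is the most frequent genetic cause of Diamond-Blackfan anaemia. Its promoter (gene at chr19:42364325-42376993) held 206 H3K27ac fragments with vehicle (Poisson interval 179 to 236) and 214 with XY018, 39 and 23 SREBP2 fragments, and 36 and 22 RORγ fragments. RPS6, the S6 kinase substrate of the small subunit, held 187 and 170 H3K27ac fragments and 37 and 25 SREBP2 fragments, but no RORγ promoter region under either treatment. Its nearest RORγ regions began 133 bp (25 fragments, vehicle) and 113 bp (20 fragments, XY018) past a start, just beyond the 100 bp limit of the window, so its class rests on that limit. RPL22 held 177 and 173 H3K27ac fragments, and RPL8, which lies at the peptidyl transferase centre, held 164 and 166. At the low end stood RPL34 with 9 fragments with vehicle and no region with XY018, RPL36A with 12 and 16, RPL9 with 14 and 10, RPS13 with 14 and 21, and RPS27A, which encodes a fusion of ubiquitin and the ribosomal protein, with 17 and 23. RPL32 had a region with XY018 alone, of 10 fragments.

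RPL10L, an intronless copy of RPL10 used in the testis, had no H3K27ac region under either treatment, and its single region was a RORγ region of 8 fragments with vehicle. In the promoter windows of the members, a median of 1.19% of 50-base words occur elsewhere in hg19, and 30 members had no such word.

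Members that carried both factors were mostly the more acetylated ones. With vehicle, 31 members carried both factors, 16 SREBP2 alone, 3 RORγ alone and 34 neither. Of all 20098 protein-coding genes, 12108 carried both and 5427 neither. The median H3K27ac was 115 fragments (range 20 to 206) in the 31 genes with both factors, 42.5 (18 to 187) in the 16 with SREBP2 alone, and 26.5 (9 to 83) in the 32 acetylated genes with neither. Of the 29 members with over 75 H3K27ac fragments, 26 carried both factors, and the others were RPS6 and RPL10A with SREBP2 alone and RPL37 with neither. For RPL10A, too, a RORγ region lay just outside the window, with an edge 166 bp past a start and 6 fragments with vehicle. All acetylated genes showed the same order with a narrower gap, at a median of 80 fragments with both factors and 22 with neither. At or above the median H3K27ac of acetylated genes, summed over both treatments, 98.8% of all genes carried SREBP2 and 94.1% RORγ with vehicle. Base composition moved with these classes too, with a median GC content of the promoter window of 56.6% in members with both factors and 52.2% in members with neither, against 54.6% over all genes. The part of base composition in the calls was not tested.

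**Figure D3:**
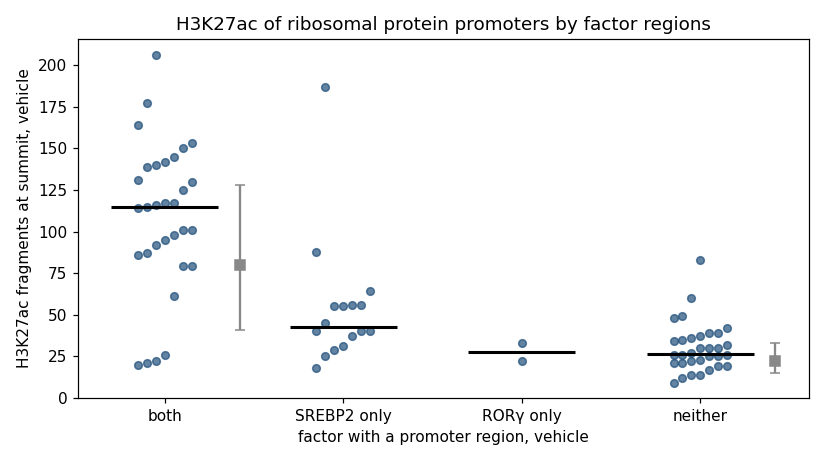
H3K27ac fragments at the summit with vehicle for each acetylated member (points), by the factors with a promoter region in the vehicle libraries, with the median as a black bar, and with grey squares and bars for the median and quartiles of all acetylated genes with both or neither factor. Members with both factors have a median of 115 fragments and those with neither 26.5.

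The comparison with all genes depended on the level of acetylation. Acetylated genes were split into 4 classes of equal size by H3K27ac summed over both treatments, each scaled by background, with class 1 the lowest. In class 4 all 10 members carried SREBP2 and 9 carried RORγ with vehicle, against 99.4% and 97.9% of all genes. In class 3, 17 of 18 carried each factor, close to the 98.1% and 90.3% of all genes there. In class 2, 13 of 24 members carried SREBP2 (54.2%, interval 32.8 to 74.4%) and 3 carried RORγ (12.5%, interval 2.66 to 32.4%), against 88.5% and 70.9% of all genes. In class 1, 7 of 28 members carried SREBP2 (25%, interval 10.7 to 44.9%) and 4 carried RORγ (14.3%, interval 4.03 to 32.7%), against 68.6% and 51.8%. The members' shares were thus near those of all genes where acetylation was high and below them where it was low, and genes are not replicates. The classes held 28, 24, 18 and 10 members from lowest to highest, so 52 of 80 lay in the lower pair.

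**Figure D4:**
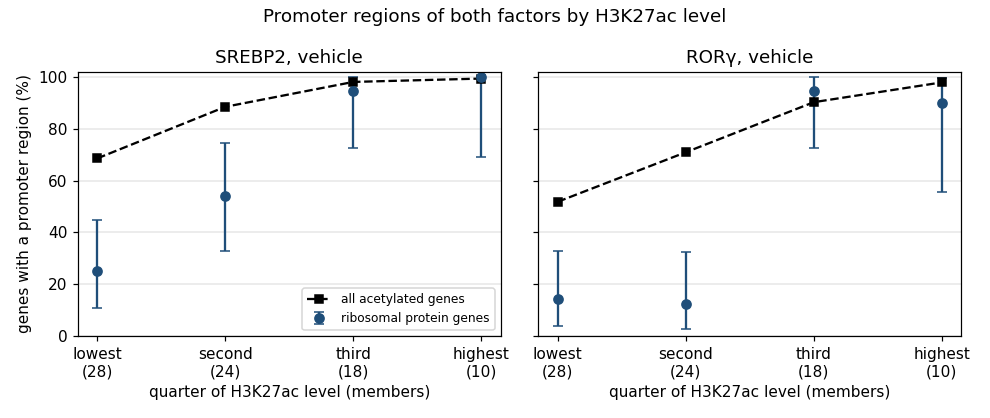
Percent of acetylated genes with an SREBP2 (left) or RORγ (right) promoter region with vehicle, by 4 classes of H3K27ac level of equal size from lowest to highest, for ribosomal protein genes (points with exact binomial 95% intervals, number of members in brackets) and all acetylated genes (squares). Members lie below all genes in the lowest and the second class, at 25% and 54.2% for SREBP2, and near them in the third and the highest.

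SREBP2 and RORγ summits mostly lay close together. The vehicle summits of both factors lay a median of 27 bp apart at the 31 members with both, and within 100 bp at 24 of them, against a median of 71 bp and 57.8% over all genes. Across members, Spearman's rho of fragments was 0.858 between SREBP2 and RORγ (31 genes), 0.688 between SREBP2 and H3K27ac (47 genes) and 0.524 between RORγ and H3K27ac (33 genes), all with vehicle. Over all genes the same values were 0.781, 0.385 and 0.132. Points of these correlations share library, depth and base composition, and they are descriptions only.

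The regions seldom sat on the start itself. The SREBP2 vehicle summit lay a median of 144 bp downstream of the canonical start and within 100 bp of it at 4 of 47 members, against 19.6% of all genes. H3K27ac summits lay a median of 191 bp downstream, and 2 of 81 fell within 100 bp (all genes 10.8%). Of 43 SREBP2 vehicle summits placed against the canonical transcript, 22 lay in the first intron of the canonical transcript, 3 in the second, 1 in exon 4 and 17 upstream. At 5 members, RPL13A, RPL36, RPL3L, RPL6 and RPS29, the SREBP2 vehicle summit was over 1000 bp from the canonical start, at another annotated start. The RORγ vehicle summit was as far away at 6 members, RPL22, RPL36, RPL3L, RPL6, RPL7 and RPS29. For H3K27ac with vehicle it was so at 6 members, RPL23A, RPL3L, RPL6, RPL7L1, RPS14 and RPS29. A window was shared with another protein-coding gene at 29 members, where a region cannot be assigned to either gene.

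Summit sequences of 81 bases are shown for some vehicle regions, in hg19 and in the direction of the member's transcription. They show which of the words named above stand at strong regions (RPS29, RPS21) and at a weak one (RPL26, 14 and 12 SREBP2 fragments). The others (RPS23, RPS3, RPLP1) are regions that differed between treatments in call or counting interval. Capitals mark any of these words on either strand, NRF1 and TATAAA left aside. The windows of RPS29, RPS21, RPL26, RPS23 and RPS3 are centred on SREBP2 summits, and that of RPLP1 on its RORγ summit. RPS21, RPS23, RPS3 and RPLP1 have theirs in the first intron of the canonical transcript, and the others lie upstream of it.
RPS29, chr14:50066561-50066641, minus strand: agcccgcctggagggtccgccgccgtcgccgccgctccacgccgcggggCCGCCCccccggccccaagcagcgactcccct
RPS21, chr20:60962222-60962302, plus strand: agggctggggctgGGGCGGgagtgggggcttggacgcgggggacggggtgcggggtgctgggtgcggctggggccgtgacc
RPL26, chr17:8286942-8287022, minus strand: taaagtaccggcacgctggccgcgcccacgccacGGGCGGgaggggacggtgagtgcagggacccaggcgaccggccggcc
RPS23, chr5:81573985-81574065, minus strand: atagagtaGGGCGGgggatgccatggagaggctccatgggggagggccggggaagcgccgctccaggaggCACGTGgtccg
RPS3, chr11:75110621-75110701, plus strand: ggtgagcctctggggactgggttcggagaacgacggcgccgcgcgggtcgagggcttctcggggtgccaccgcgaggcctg
RPLP1, chr15:69745493-69745573, plus strand: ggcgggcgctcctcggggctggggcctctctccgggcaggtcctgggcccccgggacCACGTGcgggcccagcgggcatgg

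No SREBP2 vehicle summit of the 47 had a sterol regulatory element within 100 bp (all genes 0.677%). An E-box lay within 100 bp of 6 (12.8%, all genes 4.77%), as at RPS23, and within 50 bp of 2 (4.26%, all genes 2.48%). GGGCGG was found at 28 (59.6%, all genes 69.8%) and AGGTCA at 2 (4.26%, all genes 5.45%). Among the 34 RORγ vehicle summits, 2 had AGGTCA within 100 bp (5.88%, all genes 6.16%) and none within 50 bp (all genes 2.60%), and 5 had an E-box (14.7%, all genes 4.49%), as at RPLP1. The strongest RORγ promoter region of any member was that of RPL3L.

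The SREBP2 ratio was below 1 at every member that could be compared, as it was at nearly all genes. The strongest vehicle region was kept, by an overlap of at least 1 bp, at 36 of 47 members against 87.7% of all genes. Ratios were taken over pairs of overlapping promoter regions, each pileup divided by its library's genome-wide background. The median XY018 to vehicle ratio over 35 pairs was 0.53 (range 0.30 to 0.90), and all 35 were lower, against a median of 0.62 and 98.0% lower over 12337 genes. A ratio of 1/1.5 or less was reached by 26 of 35 members (all genes 62.3%) and one of 1.5 or more by none (all genes 0.0567%). The counting interval of the ratio (exact conditional binomial, 95%) lay below 1 at 18 members, RPS15 among them, and held 1 at the other 17. It lay below 1 at 36.8% of all genes. Both treatments' SREBP2 libraries differ in fragment length, and scaling by tags per kb gave a median of 0.59, with 34 of 35 lower. Pairs with a partner beyond the window gave the same median over 37 members, all lower.

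The strongest SREBP2 regions with vehicle were those of RPL22 (55 fragments), RPL7 (51), RPS29 (45), RPS20 (43) and RPL8 (41). RPS20, a small subunit protein mutated in a hereditary colon cancer, had the lowest ratio, with 43 fragments (interval 31.1 to 57.9) against 15 (8.40 to 24.7) and a ratio of 0.30 (0.15 to 0.54). RPS15 (22 and 8 fragments, ratio 0.31, or 22 and 16 and 0.62, with an interval of 0.30 to 1.23, for an XY018 region on the same summit beyond the window), the stalk protein gene RPLP2 (32 and 13, 0.34), RPL12 (22 and 9, 0.35), at the base of the stalk, and RPL35 (24 and 10, 0.35) came next. The highest ratios were those of RPL14 (15 and 16 fragments, 0.90), RPL3L (40 and 38, 0.80), RPL7A (25 and 23, 0.78), RPS21 (35 and 32, 0.77) and RPL17 (15 and 13, 0.73), whose intervals all held 1. The RPL22 pair had 55 and 30 fragments and a ratio of 0.46 (0.29 to 0.73), while its strongest XY018 region, of 41 fragments, had its summit at -9824 bp from the canonical start, at another start in a window shared with RNF207.

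The 11 members with an SREBP2 region with vehicle alone had weak regions, of 5 to 18 fragments. They were RPL3, RPL13A, RPL19, RPL30, RPL31, RPL37A, RPLP0, RPS4X, RPS10, RPS16 and RPS23. RPL31 had 18 fragments, RPS23, which sits at the decoding centre, had 16, RPL37A 12, and RPL30 5. RPL15 (6 fragments) and RPL38 (8 fragments) had a promoter region with XY018 alone. At RPL38 the vehicle region held 16 fragments, but its edge was 111 bp past a start, just beyond the window, and the ratio of this pair was 0.42 (0.16 to 1.05). Another 35 members, among them RPL5, RPL11, RPL4, RPS14, RPS24, RPS26 and RPS27A, had none under either treatment.

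The median RORγ ratio of the members was close to 1. The strongest vehicle region was kept at 28 of 34 members against 90.4% of all genes. Over 27 pairs the median ratio was 0.99 (range 0.49 to 2.84), with 16 lower, against 0.97 and 55.3% lower over all genes. A ratio of 1/1.5 or less was seen at 4 members (all genes 9.54%), and one of 1.5 or more at 3 (all genes 7.31%). The counting interval held 1 at 26 of 27 members and lay above 1 at the other, against 1.65% of all genes below 1 and 1.13% above it, and regions of this size could not show moderate differences at this depth. The strongest were those of RPL3L (49 and 44 fragments), RPL22 (47 and 47), RPL8 (39 and 31), RPS19 (36 and 22) and RPS29 (32 and 24). At RPL3L, RPL22 and RPS29 these summits were over 1000 bp from the canonical start. These genes share a window with NDUFB10, RNF207 and LRR1, in that order.

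The member with an interval above 1 was RPLP1, which pairs with RPLP2 to form the acidic stalk that recruits elongation factors. RPLP1 had 7 RORγ fragments with vehicle (interval 2.81 to 14.4) and 18 with XY018 (10.7 to 28.4), a ratio of 2.84 (1.13 to 8.05). Its partner RPLP2 had 18 and 8, the lowest ratio of all members at 0.49 (0.18 to 1.19), and RPLP0, the core protein of the stalk, had no RORγ region. At the same genes SREBP2 was lower with XY018, at 22 and 13 fragments for RPLP1 and 32 and 13 for RPLP2, and RPLP0 had 9 with vehicle alone. Other low RORγ ratios were those of RPS2 (0.53, at a pair of 29 and 14 fragments), RPSA (0.55), the laminin receptor gene, and RPS19 (0.68), and the next highest were those of RPL27A (1.84), RPL10 (1.57), RPL35 (1.47) and RPL13 (1.26). All 10 small subunit pairs were lower (median 0.71, range 0.53 to 0.99), whereas 5 of 15 large subunit pairs were (median 1.11), beside 55.3% of all genes. These counts leave out the paralogs RPS27L (12 and 12 fragments, ratio 1.11) and RPL3L (0.99). They also leave out pairs that reached beyond the window, at RPS15 (1.21) and RPL10A (0.74). Every one of those 10 intervals held 1, and the difference between the subunits was not tested.

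RORγ promoter regions called with vehicle alone belonged to RPL10L, RPL11, RPL17, RPL23, RPL26L1, RPS3 and RPS15 and had 4 to 11 fragments in that window. At RPS15 (11 fragments with vehicle) an overlapping XY018 region of 12 fragments lay 186 bp past a start, beyond the window, with a ratio of 1.21 (0.49 to 3.02), so its RORγ was not limited to vehicle. Those called with XY018 alone belonged to RPL10A (4 fragments, beside 6 with vehicle just beyond the window), RPL35A (9) and RPL29, whose fragment number did not come out whole and is not given. RPL11, which joins RPL5 and the 5S rRNA in the particle that restrains MDM2, had 5 RORγ fragments with vehicle and none called with XY018, and RPL5 had neither factor. Both were acetylated, with 33 and 33 fragments at RPL11 and 49 and 44 at RPL5.

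The median H3K27ac ratio of the members was close to 1, while most genes had a ratio above 1. The strongest vehicle region was kept at 79 of 81 members against 96.2% of all genes. Over 80 pairs the median ratio was 1.03 (range 0.35 to 1.90), and 37 were lower, whereas the median over 12881 genes was 1.27, a shift of 0.35 on the log2 scale, and 19.6% were lower. Against that shift, 60 of 80 members lay below the median of all genes. A ratio of 1/1.5 or less was seen at 6 members (all genes 3.08%) and one of 1.5 or more at 7 (all genes 22.6%). Counting intervals lay below 1 at 8 members and above 1 at 7, against 1.93% and 36.1% of all genes. The gap was present at either level of signal. Among pairs with a fragment sum under 137, the median of all genes, the members' median was 0.998 against 1.18, and among the other pairs it was 1.06 against 1.33. The other lists lay between, at 1.09 for other translation genes, 1.12 for the proteasome, 1.17 for cholesterol synthesis and 1.199 for the mitochondrial ribosome. Over pairs with SREBP2 these lists had medians of 0.67, 0.67, 0.56 and 0.55, and with RORγ of 1.06, 0.88, 1.003 and 1.11, in the same order.

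**Figure D5:**
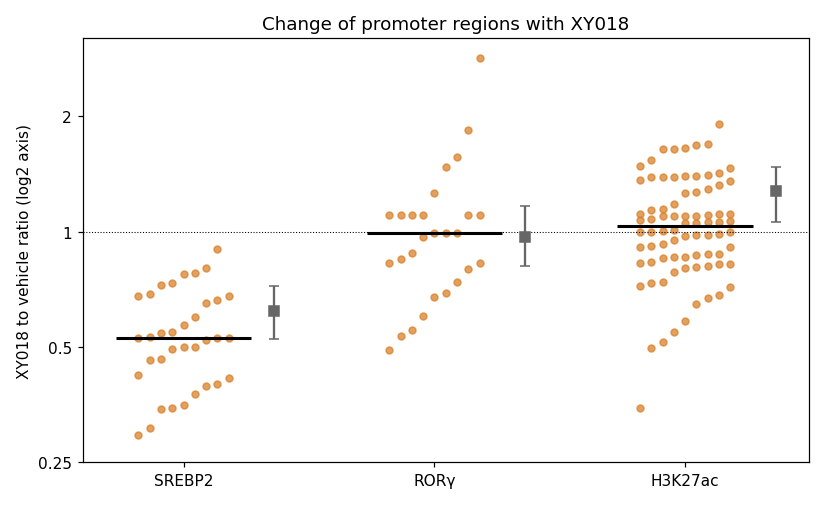
XY018 to vehicle ratio of summit fragments over background at each member with a pair (points, log2 axis), for SREBP2 (35 genes), RORγ (27) and H3K27ac (80), with the members' median as a black bar and the median and quartiles of all genes as grey squares and bars. The members' medians are 0.53, 0.99 and 1.03 against 0.62, 0.97 and 1.27 over all genes.

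RPS3, a small subunit protein at the mRNA entry site that also acts in DNA repair, had the lowest H3K27ac ratio. Its region held 79 fragments with vehicle (interval 62.5 to 98.5) and 25 with XY018 (16.2 to 36.9), a ratio of 0.35 (0.21 to 0.55), and SREBP2 there had 18 and 8 fragments. RPL37A (64 and 29 fragments, ratio 0.50), RPS3A (34 and 16, 0.52), RPL10A (88 and 44, 0.55), RPL38 (60 and 32, 0.58), RPL17 (114 and 70, 0.67), RPS20 (150 and 99, 0.72) and RPL35 (130 and 87, 0.73) were the others whose interval lay below 1. Of these 8 genes, 6 had an SREBP2 vehicle promoter region, RPL38 had one only just beyond the window, and RPS3A had none. Such a region lay at 47 of the 80 members acetylated under both treatments and at 88.7% of all genes so acetylated. The group with SREBP2 alone had a median H3K27ac ratio of 0.87, with 12 of 16 lower, against 1.08 and 11 of 31 lower with both factors and 1.004 and 14 of 31 lower with neither. Over all genes the median was 1.31 with both factors (1379 of 9916 lower) and 1.16 with neither (398 of 1283 lower). No such median was taken over all genes with SREBP2 alone.

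The highest H3K27ac ratios were those of RPL28 (19 and 33 fragments, 1.90), RPL23 (22 and 34, 1.69), RPL23A (39 and 60, 1.69), RPL7 (131 and 197, 1.65) and, at 1.64 each, RPL26L1 (26 and 39) and RPS13 (14 and 21). The interval lay above 1 at RPL28, RPL23A, RPL7, RPL6, RPS21, RPS27L and RPS29. RPL7 showed the largest difference in fragments among these, and its region overlaps the window of RDH10. RPL6, RPL28, RPL23A and RPS29 also share theirs, with PTPN11, TMEM238, RAB34 and LRR1, whereas RPS21 and RPS27L do not. The H3K27ac summits of RPL6, RPL23A and RPS29 lay over 1000 bp from the canonical start under both treatments.

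The genes listed here for Diamond-Blackfan anaemia, a chosen list that need not be complete, did not form a uniform group. RPS19 and RPS7 (116 and 112 H3K27ac fragments) carried both factors, and RPS10 (25 and 20) carried SREBP2 with 6 fragments. RPS24 (21 and 10 at different regions, 11 and 10 with a ratio of 0.996 at the overlapping pair), RPS26 (32 and 25), RPL35A (42 and 35) and RPL5 had neither with vehicle. The 5q- syndrome gene RPS14 had 19 and 14 H3K27ac fragments and neither factor.

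The 4 members on the X chromosome were acetylated, and RPL10, mutated in some T-cell leukaemias, was the one with both factors. RPL10 held 86 and 68 H3K27ac, 31 and 17 SREBP2 and 12 and 17 RORγ fragments. RPS4X held 40 and 27 H3K27ac fragments and 10 SREBP2 fragments with vehicle alone. RPL39 (37 and 28) and RPL36A had promoter regions of H3K27ac alone. At RPL39 an SREBP2 region of 7 fragments with vehicle lay just outside the window, with an edge 161 bp past a start. Of the other exit tunnel genes, RPL4 (27 and 21) had promoter regions of H3K27ac alone, with SREBP2 regions in its gene body under both treatments. RPL17 held SREBP2 (15 and 13) and, with vehicle, RORγ (5).

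RPL13A, which leaves the ribosome to silence inflammatory mRNAs, had 40 and 54 H3K27ac fragments and an SREBP2 region of 8 fragments with vehicle alone. RPSA had 79 and 76 H3K27ac fragments, 15 and 7 SREBP2 fragments and 10 and 5 RORγ fragments, and so belonged to the 27 members with a region in all 6 libraries. That share, 27 of 84, compares with 46.3% of all genes and 71.7% of acetylated genes.

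The paralogs differed among themselves. RPL3L, the muscle counterpart of RPL3, had more RORγ (49 and 44) than H3K27ac (21 and 22) fragments and 40 and 38 SREBP2 fragments. Its regions lay at another start than the canonical one, in a window shared with NDUFB10. RPS27L, a p53 target, had 87 and 113 H3K27ac fragments, 16 and 13 SREBP2 fragments and 12 and 12 RORγ fragments, and was the other paralog with regions in all libraries. RPL26L1 had 26 and 39 H3K27ac, 24 and 14 SREBP2 and, with vehicle alone, 8 RORγ fragments. RPL39L (40 and 40 H3K27ac, 24 and 15 SREBP2) lacked a RORγ promoter region, and RPL7L1 (26 and 28) and RPL22L1 (48 and 44) had promoter regions of H3K27ac alone. At all 6 paralogs with a pair the H3K27ac ratio was above 1 (1.004 to 1.64), as it was at 10357 of 12881 genes. The median of the paralogs was 1.16, against 1.27 over all genes.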

How the data were processed

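The study's methods state alignment to hg19 and removal of duplicate tags and of tags without a unique place. The aligner is BWA in those methods and Bowtie2 in the submitters' processing notes, which also name MACS2 2.1.0. Each list the authors deposited holds the regions of 1 library, with a fold (ratio of summit pileup plus 1 to local background plus 1), −log10 p and −log10 q values, a summit offset that was deposited as a plain position (unit other), and a display score that was deposited but not used. H3K27ac lists were deposited as part of longer call sets (peak numbers up to 245055), so weaker regions may be missing, and the sources used here do not give the rule. No region ended beyond its chromosome in GRCh37, and GENCODE 44 lifted to that build gave the genes.

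Fold and −log10 p were inverted under the Poisson model to whole fragments and local background, whole for 98.7 to 100% of regions within 0.05 of a step. On simulated data, 99.995% or more of 20000 regions came back right in each simulated library. The most common background scaled each library. Depth is that background over the smallest region width. Intervals are exact at 95% and reflect counting error alone. Groups of 1 library allow no test. Python 3.11.15, scipy 1.17.1 and pandas 2.3.3 were used. The 6 input libraries were not used here.

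Genes were named by rule: per antibody the 5 most and fewest vehicle fragments, the 5 lowest and highest ratios, members without a region, paralogs and role lists. Where many lacked a region, examples are named. RPL6, RPS21, RPS27L and RPS29, named for their H3K27ac interval, were chosen after their values were seen, as were the nearest regions outside the window. Members and lists were chosen with earlier results of these data known. Some members and sequences are not reported here by name, though counts include them.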

Additional observations from a re-analysis of the deposited data

How the results depend on the processing

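With 1 library per group no replicate could be left out, and no paired analysis was possible because no group has a second library. Set beside its value under another setting, a count or median stayed within 1.5 times, or within the spread over genes, in 100 comparisons and did not in 5, and no median ratio of SREBP2 rose above 1. At q of at most 1e-05, members with a region numbered 24 for SREBP2 with XY018, 21 for RORγ with vehicle and 19 for RORγ with XY018, against 54.2%, 51.9% and 50.7% of all genes. With windows of 5 kb either side, RORγ marked 64 members with vehicle and 61 with XY018, against 80.0% and 77.0% of all genes. SREBP2 counts at this window stayed within 1.5 times, at 64 with vehicle and 51 with XY018, against 81.1% and 73.5% of all genes. Without shared windows, SREBP2 marked 30 and RORγ 21 of 55 members with vehicle, against 70.6% and 62.6% of all genes, shared windows included. When the longer SREBP2 list was cut to the length of the shorter, 42 members had a vehicle region (all genes 67.4%) and 36 kept it. The median ratios ranged over the settings from 0.51 to 0.59 for SREBP2, from 0.97 to 0.99 for RORγ and from 0.998 to 1.03 for H3K27ac, where the lowest was without paralogs. At summits, shares of members with a word moved with the distance searched for 6 of 16 word and factor pairs. Allowing a partner region beyond the window, a setting chosen after seeing the data, moved none of the median ratios, but raised RPS15 from 0.31 to 0.62 for SREBP2 and RPL18 from 1.53 to 3.52 for H3K27ac. Fragment numbers under about 20 carry wide intervals, and depth limits what single members can show.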

Other observations

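Ribosomal protein genes also held regions inside the gene body and outside every promoter window. With vehicle there were 54 SREBP2 regions in 25 members, 56 RORγ regions in 29 and 78 H3K27ac regions in 38, and with XY018 25 in 12, 46 in 20 and 83 in 38. The members with such a region were 29.8%, 34.5% and 45.2% with vehicle, against 60.9%, 66.3% and 49.7% of all genes, and 14.3%, 23.8% and 45.2% with XY018, against 49.99%, 61.7% and 51.0%. The median gene length was 5.55 kb in the members and 27.3 kb over all genes, and the SREBP2 list held 117441 regions with vehicle and 69700 with XY018. The strongest SREBP2 region of this kind lay in RPL3L, with 46 fragments with vehicle and 27 with XY018. The strongest RORγ region lay in RPS6 with vehicle (25 fragments, chr9:19379785-19380063), with its edge 133 bp past a start. With XY018 the strongest lay in RPS23 (35 fragments, chr5:81570215-81570585). For H3K27ac it lay in RPL22 under both treatments, with 123 fragments with vehicle and 128 with XY018. The widest promoter regions of H3K27ac with vehicle were those of RPL13 (3462 bp), RPL35 (3155 bp), RPL7A (2910 bp) and RPS29 (2700 bp), and with XY018 the RPL35 region was 1488 bp wide.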
